A study of Mus musculus with 9 samples.

Results

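Genes of the contractile apparatus of muscle were followed by RNA-seq of the whole pancreas of e18.5 mouse embryos. The set holds 32 genes of 55453 in the count files, named as a list: 11 genes of smooth muscle and 21 genes of skeletal or cardiac muscle. All 11 smooth muscle genes and 19 of the 21 striated muscle genes had enough reads to be tested. Tnnc2 and Cacna1s did not pass the filter on low counts.

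The libraries came from 3 groups of 3 embryos on a mixed C57BL6 background. The groups were labelled Pdx1:Cre;Grg3Grg4, Pdx1:Cre;Grg3 and Pdx1:Cre, and are called libraries labelled Grg3Grg4, libraries labelled Grg3 and Pdx1:Cre controls here. All 3 groups carry Pdx1:Cre, a Cre recombinase under the promoter of Pdx1, which is active in the epithelium of the developing pancreas and not in its muscle or connective tissue. The labels do not describe the Grg alleles further and do not say whether the embryos of a group were littermates. Grg3 and Grg4 are Groucho co-repressors, whose genes are Tle3 and Tle4. In triplets of values below, the order is replicate 1, 2 and 3 of a group.

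Smooth muscle lines blood vessels, ducts and the wall of the gut. It contracts through smooth muscle actins and the myosin Myh11, switched on when myosin light chain kinase phosphorylates the regulatory light chain, and its genes are driven by serum response factor with its partner myocardin. Skeletal and cardiac muscle are striated: their actin and myosin are ordered in sarcomeres and switched by troponin and calcium, and skeletal muscle genes are turned on by Myod1 and myogenin. The pancreas has smooth muscle in its vessels and no skeletal muscle of its own.

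Serum response factor binds the CArG box, and Myod1 and myogenin bind E-boxes such as CAGCTG. RefSeq promoter sequences (GRCm38.p6) were at hand for 24 of the 32 genes, 8 smooth and 16 striated. Only exact matches to CCWWWWWWGG, where W is A or T, were counted as a CArG box. Near matches, such as ccctatatgg in Acta2 and Actc1, were not counted. In the 250 bases before the start, read on both strands, an exact CArG box stood in 1 of the 8 smooth muscle genes. It stood in 2 of the 16 striated muscle genes and in 1.47% of the 32851 promoters of the table. CAGCTG stood in 3 of 8 and 7 of 16, and in 13.0% of the table. The 3 promoters with an exact CArG box are shown because they join the classes in this motif, with the exact box in capitals. It begins 161 bases before the start in Myl9, 47 in Actc1 and 73 in Acta1. Myl9 lies at chr2:156775214-156775463 on the plus strand, Actc1 at chr2:114052876-114053125 on the minus strand and Acta1 at chr8:123894776-123895025 on the minus strand.
Myl9: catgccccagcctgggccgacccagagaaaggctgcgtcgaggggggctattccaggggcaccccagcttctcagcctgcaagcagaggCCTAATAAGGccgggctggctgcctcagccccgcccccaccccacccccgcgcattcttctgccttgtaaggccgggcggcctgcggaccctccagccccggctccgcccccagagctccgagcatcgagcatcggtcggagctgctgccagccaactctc
Actc1: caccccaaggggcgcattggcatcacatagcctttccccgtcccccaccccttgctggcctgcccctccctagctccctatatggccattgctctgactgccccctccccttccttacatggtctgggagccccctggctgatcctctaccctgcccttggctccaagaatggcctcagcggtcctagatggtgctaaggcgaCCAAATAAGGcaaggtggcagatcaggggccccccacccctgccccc
Acta1: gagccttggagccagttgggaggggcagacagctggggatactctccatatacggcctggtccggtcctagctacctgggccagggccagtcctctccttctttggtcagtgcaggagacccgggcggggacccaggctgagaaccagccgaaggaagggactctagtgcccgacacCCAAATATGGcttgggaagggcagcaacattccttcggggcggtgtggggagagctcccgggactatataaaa
A match is a description of these letters, not a bound site.

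Gene counts summed to 46817453 to 62744499 per library. Tle3 went against the labels: it stood at 126 to 146 CPM in the libraries labelled Grg3Grg4 and 145 to 167 CPM in those labelled Grg3, against 63.1 to 67.7 CPM in the Pdx1:Cre controls, where CPM is counts scaled to a total of 1e6 gene counts after TMM scaling. Tle4 stood at 8.63 to 15.5 CPM with the Grg3Grg4 label and 9.83 to 13.8 CPM with the Grg3 label, against 7.68 to 7.85 CPM in controls. The counts are per whole gene and cover cells outside the Cre lineage. Why Tle3 and Tle4 stood higher under the labels was not tested, so directions below are between labels. Xist was at 428 to 755 CPM in Pdx1:Cre replicates 2 and 3 and Grg3 replicates 2 and 3, and at 0.265 CPM or less in the other 5 libraries, and the Y-linked Ddx3y stood at 30.0 CPM or more in those 5 alone, so all 3 libraries labelled Grg3Grg4 were male. Endocrine and duct markers of the labelled tissue were present in all 9 libraries, with the insulin gene Ins2 at 654 to 2873 CPM, glucagon (Gcg) at 388 to 1245 CPM and the duct keratin Krt19 at 66.7 to 109 CPM. The acinar markers Cpa1 and Prss1 were also read and are not given here. Gene positions are those of GENCODE M21 on GRCm38.

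The smooth muscle genes were higher in each of the 6 libraries labelled Grg3Grg4 or Grg3 than in any control when summed, and the libraries differed widely. The 11 genes summed to 663, 1396 and 396 CPM in the libraries labelled Grg3Grg4, 497, 1381 and 592 CPM in those labelled Grg3, and 339, 276 and 254 CPM in the controls. Replicate 2 of both labels carried the highest sums. Among the male libraries the sums were 396 to 1396 CPM in those labelled Grg3Grg4 and 497 CPM in the 1 labelled Grg3, against 339 CPM in the 1 control. Among the females they were 1381 and 592 CPM with the Grg3 label, against 276 and 254 CPM in controls. In bulk tissue, more cells of a type and more RNA per cell cannot be told apart.

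The gut-type smooth muscle actin Actg2 and the smooth muscle myosin heavy chain Myh11 differed widely between the labelled libraries and the controls. Actg2 (chr6:83512905-83536265) stood at 42.8, 150.4 and 11.8 CPM in the libraries labelled Grg3Grg4, at 28.3, 138 and 56.5 CPM in those labelled Grg3, and at 6.35, 4.80 and 3.43 CPM in the controls. Its lowest value under either label was above its highest control. The fitted log2 fold changes over control were 3.81 (SE 0.88, edgeR adjusted p = 0.0559) with the Grg3Grg4 label and 3.93 (SE 0.88, edgeR adjusted p = 0.062) with the Grg3 label.

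Myh11 (chr16:14194535-14291372) stood at 111, 227 and 38.5 CPM in the libraries labelled Grg3Grg4, at 58.8, 204 and 66.6 CPM in those labelled Grg3, and at 21.5, 18.7 and 18.3 CPM in the controls. The groups did not overlap with control here either, and the controls averaged 19.5 ± 1.72 CPM (SD, n = 3). The log2 fold changes were 2.69 with the Grg3Grg4 label (SE 0.63, edgeR adjusted p = 0.0576) and 2.50 with the Grg3 label (SE 0.62, edgeR adjusted p = 0.0804).

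Calponin, encoded by Cnn1 (chr9:22099216-22109630), binds actin and restrains contraction. It stood at 16.9, 38.1 and 4.55 CPM with the Grg3Grg4 label, at 11.7, 54.8 and 13.8 CPM with the Grg3 label, and at 2.88, 0.670 and 0.286 CPM in the controls. The controls themselves spread 10.1-fold here, with replicate 1 the highest. Its log2 fold changes of 3.95 with the Grg3Grg4 label (SE 1.0, edgeR adjusted p = 0.0719) and 4.38 with the Grg3 label (SE 1.01, edgeR adjusted p = 0.0662) were the largest of the class.

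The smooth muscle alpha actin Acta2 (chr19:34241090-34255590), which vessel walls and activated fibroblasts also make, stood at 172, 312 and 92.3 CPM with the Grg3Grg4 label, at 132, 399.6 and 168 CPM with the Grg3 label, and at 91.1, 68.6 and 57.4 CPM in controls. Grg3Grg4 replicate 3 was barely above control replicate 1. The log2 fold changes were 1.41 with the Grg3Grg4 label (SE 0.48, edgeR adjusted p = 0.139) and 1.69 with the Grg3 label (SE 0.48, edgeR adjusted p = 0.107). Near-identical actin genes share reads, and 15.8% to 20.7% of the reads of a library aligned to several places and were not counted, so the level of any one actin is uncertain.

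Of the light chain switch, the regulatory light chain Myl9 stood at 86.6, 161 and 53.7 CPM with the Grg3Grg4 label, at 71.4, 184 and 79.1 CPM with the Grg3 label, and at 58.8, 45.0 and 43.8 CPM in controls. The kinase Mylk stood at 79.5, 159 and 57.2 CPM with the Grg3Grg4 label, at 55.3, 129 and 64.0 CPM with the Grg3 label, and at 39.8, 42.4 and 41.2 CPM in controls. For Mylk each label lay above all controls, and for Myl9 Grg3Grg4 replicate 3 lay among them. The intermediate filament gene Des, shared by all muscle types, stood at 85.2, 231 and 76.9 CPM with the Grg3Grg4 label, at 80.3, 171 and 82.4 CPM with the Grg3 label, and at 60.6, 47.4 and 44.7 CPM in controls. The actin-bundling Synpo2 stood at 16.7, 34.2 and 5.86 CPM with the Grg3Grg4 label, at 9.93, 19.8 and 11.9 CPM with the Grg3 label, and at 6.70, 4.65 and 4.58 CPM in controls. In both genes replicate 2 of each label was the highest library of its group.

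Smoothelin, encoded by Smtn, had the smallest differences of the class: 45.8, 71.3 and 49.95 CPM with the Grg3Grg4 label, 43.6, 64.0 and 42.2 CPM with the Grg3 label, and 46.5, 41.0 and 38.1 CPM in controls. Its log2 differences from control were 0.41 (SE 0.19) with the Grg3Grg4 label and 0.26 (SE 0.19) with the Grg3 label, and both groups overlapped with control. The actin nucleator Lmod1 stood at 5.81, 9.45 and 4.86 CPM with the Grg3Grg4 label, at 4.48, 16.2 and 6.02 CPM with the Grg3 label, and at 4.17, 2.81 and 2.33 CPM in controls, with no overlap between either label and control. Transgelin, Tagln, another marker of smooth muscle, stood at 0.757, 1.69 and 0.571 CPM with the Grg3Grg4 label, at 1.28, 1.65 and 0.770 CPM with the Grg3 label, and at 0.480, 0.293 and 0.286 CPM in controls. In GENCODE M21, 67.9% of the exon bases of Tagln lie in exons of other genes (Pcsk7 and Gm48529), where reads can be set aside as ambiguous, so its level is uncertain. For Myl9, Mylk, Des, Synpo2, Lmod1 and Tagln the log2 fold changes over control ran from 1.03 for Myl9 to 1.84 for Synpo2 with the Grg3Grg4 label (edgeR adjusted p 0.0942 to 0.217). With the Grg3 label they ran from 1.01 for Mylk to 1.80 for Tagln (edgeR adjusted p 0.097 to 0.192).

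**Figure D1:**
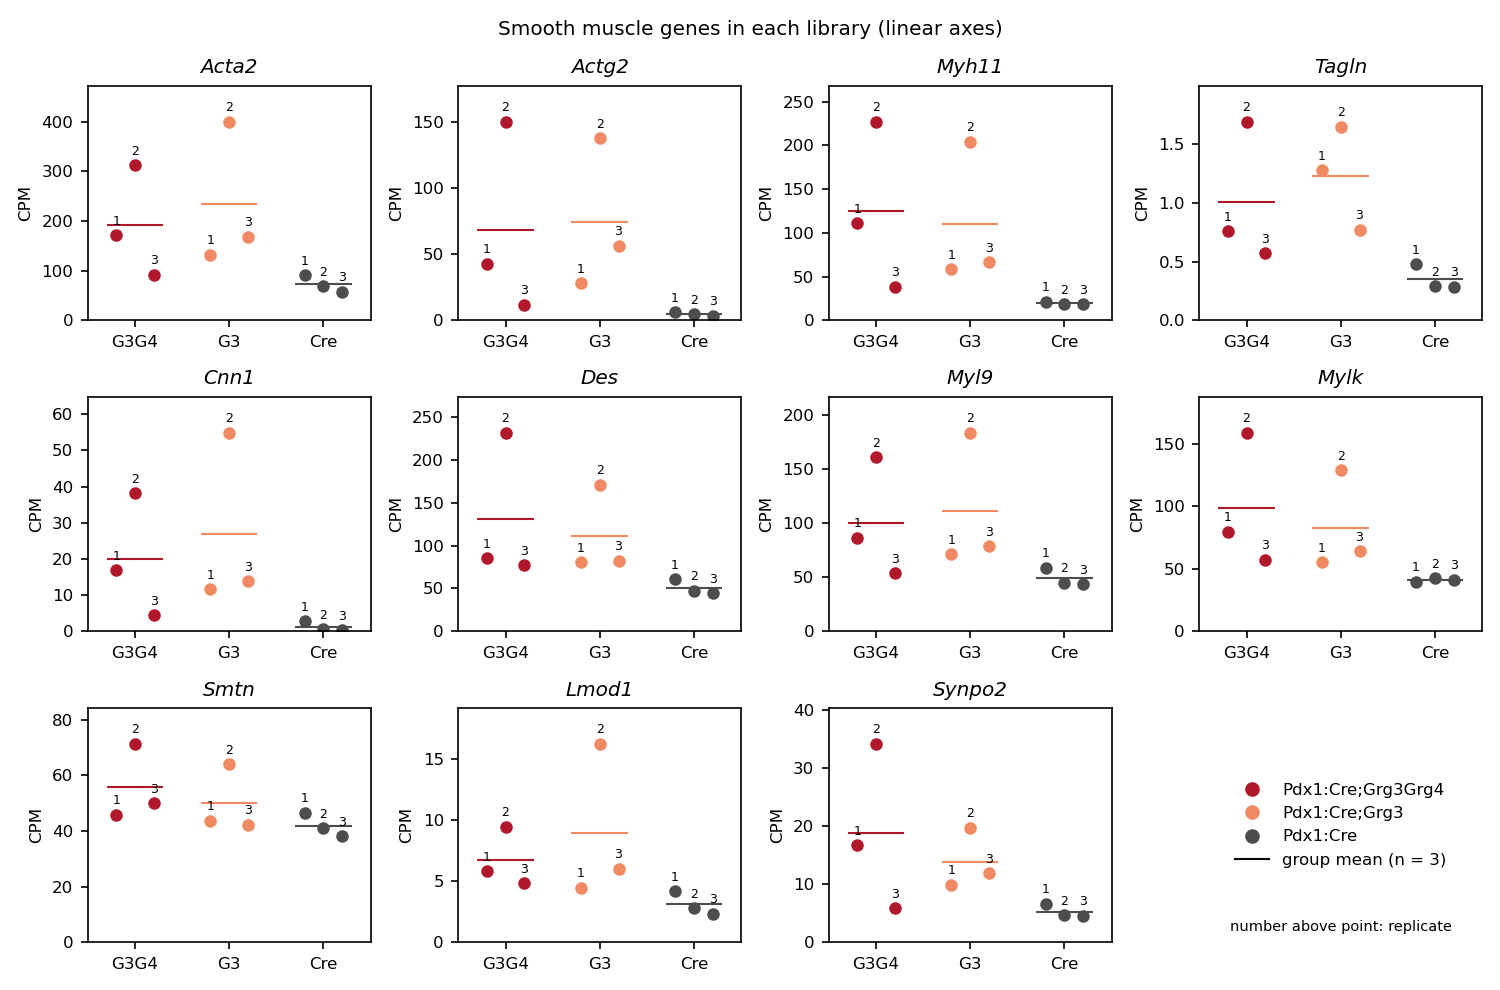
CPM of the 11 smooth muscle genes in each of the 9 libraries, with 1 panel per gene, linear axes from 0, a point per library numbered by replicate and the group mean as a line (G3G4 for the Grg3Grg4 label, G3 for the Grg3 label, Cre for the controls). Replicate 2 of each label is the highest or second highest library in all 11 panels, and no control is in the top 2 of any panel.

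None of the 11 smooth muscle genes passed the test against control, with either label. The count was 0 of 11 called higher with the Grg3Grg4 label, against 1.24% of all genes tested, and 0 of 11 with the Grg3 label, against 0.704%. At an unadjusted p under 0.05, 10 of 11 passed in each comparison, against 20.2% and 19.1% of all genes. DESeq2's Wald test called 4 of the 11 higher with the Grg3Grg4 label, against 4.68% of all genes, and 5 with the Grg3 label, against 3.82%. The median log2 fold change of the 11 was 1.41 with the Grg3Grg4 label and 1.52 with the Grg3 label, beside 0.01 and 0.02 over all 19166 genes tested. In 8 of 11 every library labelled Grg3Grg4 lay above every control (14.9% of all genes), and in 10 of 11 every library labelled Grg3 did (12.6%). The comparisons share the same controls.

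The libraries of a label differed widely among themselves. Replicate 2 of the Grg3Grg4 label was the highest of the 9 libraries for 7 of the 11 genes and replicate 2 of the Grg3 label for the other 4, and these libraries held the top 2 places for all 11. As multiples of the control mean, the median gene stood at 2.14, 4.55 and 1.51 in the libraries labelled Grg3Grg4 and at 1.83, 4.66 and 2.18 in those labelled Grg3. All 11 genes were above the control mean in each of the 6 libraries. With both replicate 2 libraries left out, 4 of 11 passed in each comparison, against 1.68% of all genes called higher with the Grg3Grg4 label and 1.73% with the Grg3 label: Actg2, Des, Myh11 and Mylk with the Grg3Grg4 label, and Actg2, Cnn1, Des and Myh11 with the Grg3 label. The median log2 fold changes were then 0.87 and 1.04. This exclusion was chosen after seeing the data.

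Between the labels, no smooth muscle gene passed the test. The log2 fold changes with the Grg3Grg4 label over the Grg3 label ran from -0.43 for Cnn1 to 0.45 for Synpo2, with a median of -0.12. None of 11 was called (edgeR adjusted p 0.673 to 0.955, 0.188% of all genes called in either direction) and 0 passed at an unadjusted p under 0.05. The median was -0.67 without Grg3Grg4 replicate 2, and 0.64 without Grg3 replicate 2.

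Per length of transcript, the make-up of the class also differed between libraries. In CPM per kilobase of exon (RPKM), Myl9 was the highest member in the controls at 37.7 to 50.6 and Acta2 the next at 26.1 to 41.5, while Actg2 was at 2.20 to 4.08. Actg2 made 11.2%, 18.6% and 5.37% of the RPKM of the class in the libraries labelled Grg3Grg4 and 9.54%, 16.0% and 15.4% in those labelled Grg3, against 2.35% to 3.08% in controls. Acta2 kept 27.4% to 32.9% of it in all 9 libraries.

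The striated muscle genes followed another pattern: 1 library, Grg3Grg4 replicate 2, held most of their reads. The 21 genes summed to 102, 3221 and 18.1 CPM in the libraries labelled Grg3Grg4, 68.9, 19.7 and 56.7 CPM in those labelled Grg3, and 10.02, 11.2 and 18.1 CPM in the controls. All 21 were highest in Grg3Grg4 replicate 2. Grg3Grg4 replicate 3 was close to control replicate 3, and Grg3 replicate 2, in the top 2 for the smooth muscle genes, was the lowest of its group here.

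Of the actins, the skeletal alpha actin Acta1 (chr8:123891769-123894751) stood at 21.9, 892 and 1.35 CPM with the Grg3Grg4 label, at 13.9, 0.604 and 15.5 CPM with the Grg3 label, and at 0.543, 0.377 and 0.616 CPM in controls. The cardiac alpha actin Actc1 (chr2:114047282-114053548), also made in fetal skeletal muscle, stood at 5.32, 172 and 1.08 CPM with the Grg3Grg4 label, at 4.09, 0.892 and 3.47 CPM with the Grg3 label, and at 0.0417, 0.251 and 0.264 CPM in controls. Grg3 replicate 2 lay inside the control range for Acta1 and above it for Actc1. The log2 fold changes over control were 9.22 (SE 2.34, edgeR adjusted p = 0.0721) for Acta1 and 8.32 (SE 1.96, edgeR adjusted p = 0.0597) for Actc1 with the Grg3Grg4 label. With the Grg3 label they were 4.27 (SE 2.14, edgeR adjusted p = 0.31) and 3.90 (SE 1.97, edgeR adjusted p = 0.315).

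The myosin heavy chains of the list are those of immature muscle. The embryonic chain Myh3 (chr11:67078300-67102291) stood at 4.07, 278 and 0.673 CPM with the Grg3Grg4 label, at 3.64, 0.769 and 1.11 CPM with the Grg3 label, and at 0.230, 0.189 and 0.154 CPM in controls. The perinatal chain Myh8 (chr11:67277124-67308634) stood at 29.0, 719 and 2.31 CPM with the Grg3Grg4 label, at 13.5, 0.837 and 10.7 CPM with the Grg3 label, and at 1.02, 1.26 and 7.02 CPM in controls. Control replicate 3 was thus well above Grg3 replicate 2 for Myh8, and the groups overlapped. Myh8 alone made 38.8% of the striated muscle CPM of control replicate 3, against 10.2% and 11.2% in controls 1 and 2.

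The light chains Mylpf and Myl1, of fast fibres, stood at 181 and 160 CPM in Grg3Grg4 replicate 2. In the other 8 libraries Mylpf ran from 1.30 to 6.78 CPM and Myl1 from 0.104 to 6.24 CPM. The embryonic and atrial light chain Myl4 was at 13.5 CPM in that library and at 0.608 to 0.951 CPM in the other 8, which makes it the member with the least difference among them. Of the troponins of fast fibres, which let calcium switch the thin filament, Tnnt3 stood at 4.62, 178 and 1.08 CPM with the Grg3Grg4 label, at 3.84, 0.728 and 3.18 CPM with the Grg3 label, and at 0.313, 0.398 and 0.462 CPM in controls. Tnni2 ran the same way, from 0.154 to 89.3 CPM. Tnnc2 had 1, 3 and 0 reads with the Grg3Grg4 label and 0 in the other 6 libraries. Of its exon bases, 74% are shared with Ube2c in GENCODE M21, so this low count is uncertain.

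The scaffold of the sarcomere showed the same library. Titin (Ttn) stood at 112 CPM, nebulin (Neb) at 48.4 CPM and the Z-disc actinin Actn2 at 99.5 CPM in Grg3Grg4 replicate 2. Elsewhere Ttn ran from 0.405 to 3.70 CPM, Neb from 0.467 to 2.42 CPM and Actn2 from 0.126 to 2.88 CPM. Neb was higher in control replicate 3, at 2.42 CPM, than in any library labelled Grg3 (0.467 to 0.987 CPM), and its log2 difference of -0.98 (SE 1.31) from control was the lowest of the class. The fast-fibre actinin Actn3 stood at 2.11, 15.8 and 1.61 CPM with the Grg3Grg4 label, at 2.41, 2.66 and 1.93 CPM with the Grg3 label, and at 1.65, 1.57 and 1.47 CPM in controls.

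The creatine kinase Ckm, which buffers ATP in muscle, stood at 6.06, 145 and 2.80 CPM with the Grg3Grg4 label, at 5.81, 1.61 and 5.05 CPM with the Grg3 label, and at 1.34, 1.51 and 0.814 CPM in controls. All 6 labelled libraries lay above the controls. Of the calcium handling genes, the release channel Ryr1 was at 22.5 CPM in Grg3Grg4 replicate 2 and at 0.265 to 1.70 CPM elsewhere. The calcium store protein Casq1 stood at 1.69, 22.6 and 0.959 CPM with the Grg3Grg4 label, at 1.35, 4.53 and 1.68 CPM with the Grg3 label, and at 0.313, 0.209 and 0.352 CPM in controls. For Casq1, Ryr1 and Actn3 the second highest library was Grg3 replicate 2, one of the libraries that led the smooth muscle genes. The calcium pump Atp2a1 had 73, 4291 and 17 reads with the Grg3Grg4 label, 86, 10 and 54 reads with the Grg3 label, and 2, 6 and 1 reads in the controls. The ratio of its counts to control, scaled for depth, was 398 (95% counting interval 210 to 871) with the Grg3Grg4 label and 13.3 (6.82 to 29.6) with the Grg3 label. The voltage sensor Cacna1s had 13, 278 and 5 reads with the Grg3Grg4 label, 1, 5 and 8 reads with the Grg3 label, and 0, 0 and 1 reads in controls. Its ratio with the Grg3Grg4 label was 242, with an interval of 43.1 to 9590. Without Grg3Grg4 replicate 2 the ratios with the Grg3Grg4 label were 13.5 (6.81 to 30.5) for Atp2a1 and 24.3 (3.84 to 1010) for Cacna1s. Without Grg3 replicate 1 the ratio of Atp2a1 with the Grg3 label was 8.21 (4.07 to 18.8). These intervals cover counting error only.

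The regulators of the skeletal muscle programme were low. Myod1, the determination factor, had 2, 77 and 0 reads with the Grg3Grg4 label, 20, 1 and 2 reads with the Grg3 label, and 0, 13 and 4 reads in the controls. Myogenin, Myog, which acts at differentiation, had 13, 251 and 5 reads with the Grg3Grg4 label, 90, 2 and 5 reads with the Grg3 label, and 0, 7 and 1 reads in controls. Both genes were highest in Grg3Grg4 replicate 2 and second in Grg3 replicate 1. The Myog ratio to control was 27.5 (95% counting interval 13.8 to 64.4) with the Grg3Grg4 label and 9.67 (4.72 to 23.0) with the Grg3 label. Without Grg3 replicate 1, which held 90 of the 97 reads of its group, the ratio with the Grg3 label was 1.01 (0.312 to 3.19). Without Grg3Grg4 replicate 2 the ratio with the Grg3Grg4 label was 3.04 (1.26 to 8.08).

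**Figure D2:**
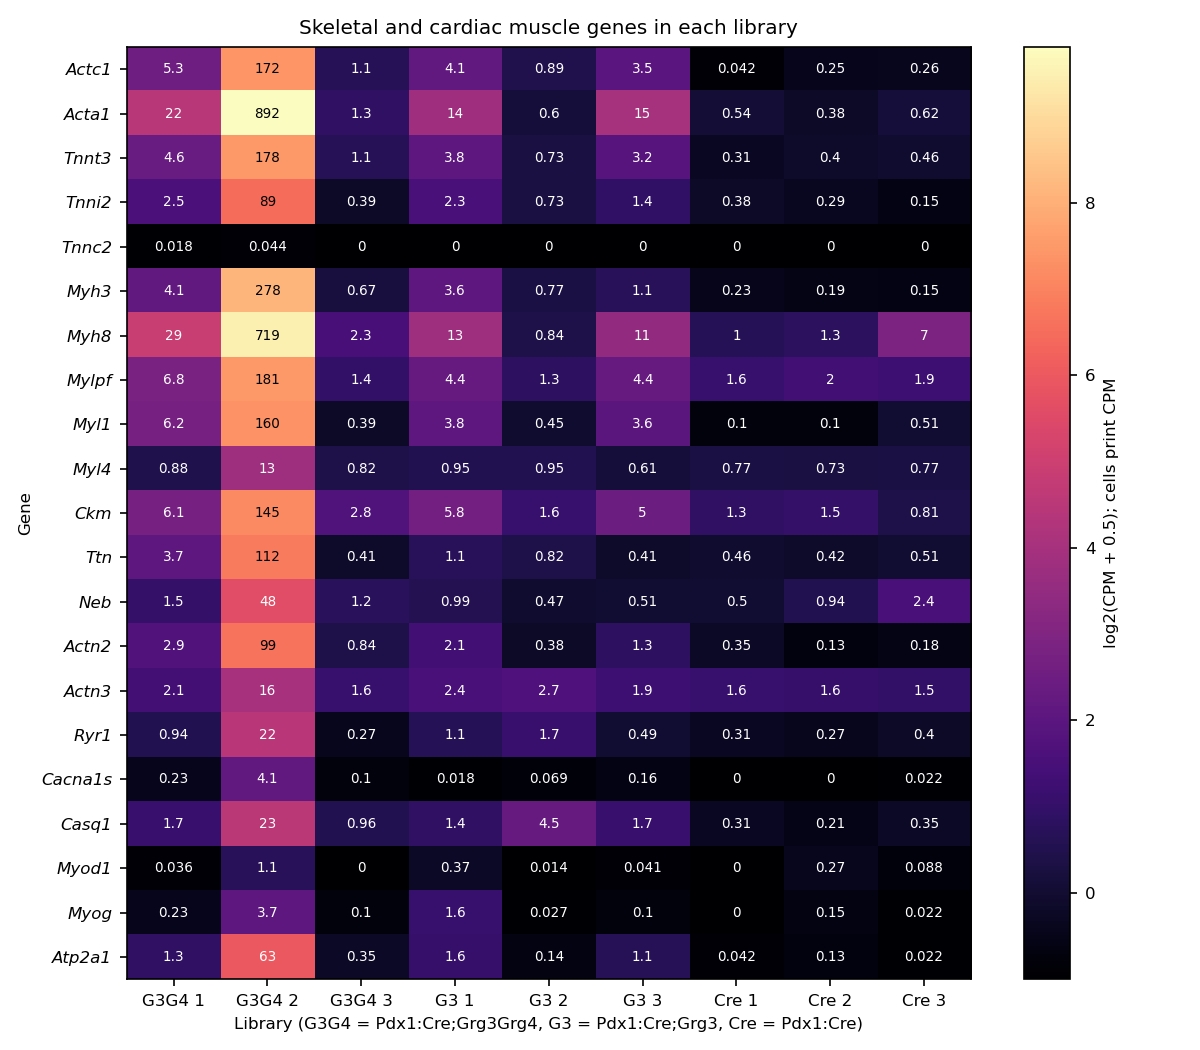
CPM of the 21 skeletal or cardiac muscle genes, printed in cells with 1 row per gene and 1 column per library and coloured by log2(CPM + 0.5), brighter for higher values. The column of Grg3Grg4 replicate 2 (G3G4 2) holds the highest value of every row, with Acta1 at 892 CPM and Myh8 at 719 CPM.

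None of the 19 striated muscle genes tested was called against control. The count was 0 of 19 with the Grg3Grg4 label and 0 of 19 with the Grg3 label, against 1.24% and 0.704% of all genes called higher. At an unadjusted p under 0.05, 18 of 19 passed with the Grg3Grg4 label and 1 of 19 with the Grg3 label, against 20.2% and 19.1% of all genes. DESeq2's Wald test gave an adjusted p to 7 of the 19 and called 6 of them higher with the Grg3Grg4 label and 0 with the Grg3 label, against 4.68% and 3.82% of all genes. The median log2 fold change was 6.34 with the Grg3Grg4 label and 2.41 with the Grg3 label, beside 0.01 and 0.02 over all genes. These counts and medians cover only genes that passed the filter, and 17 of the 21 were under 1 CPM in each control. Some, such as Atp2a1 with 2, 6 and 1 reads in the controls, passed it only through labelled libraries. The counts and medians are therefore given as a description. The fitted values ran from 1.71 (SE 1.59) for Myod1 to 9.22 for Acta1 with the Grg3Grg4 label (edgeR adjusted p 0.0597 to 0.595), and from -0.98 for Neb to 4.27 for Acta1 with the Grg3 label (edgeR adjusted p 0.182 to 0.968). In 11 of 21 genes every library labelled Grg3Grg4 lay above every control, among them Cacna1s, which was not tested. In 10 of 21 every library labelled Grg3 did. Of the 19166 genes tested, 14.9% and 12.6% did so.

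Grg3Grg4 replicate 2 sets the size of these values. It stood above the next library by a median of 25.7 times, from 2.24 to 68.1 times, and by at least 10 times for 15 of the 19 genes. As multiples of the control mean the median gene stood at 8.01, 232 and 1.63 in the libraries labelled Grg3Grg4 and at 4.77, 1.76 and 4.14 in those labelled Grg3. Without that library the median log2 fold change with the Grg3Grg4 label was 2.18, with 18 of 19 genes positive and a smallest edgeR adjusted p of 0.0582. With both replicate 2 libraries left out, 8 of the 19 genes tested passed in each comparison. The share of all genes called higher was 1.68% with the Grg3Grg4 label and 1.73% with the Grg3 label. The 8 were Acta1, Actc1, Actn2, Atp2a1, Casq1, Ckm, Myh3 and Tnnt3, and the comparisons share the same 3 controls. This exclusion was chosen after seeing the data. It took out the library with the highest striated muscle sum of the Grg3Grg4 label and the one with the lowest of the Grg3 label. Without Grg3Grg4 replicate 3, which had the lowest sums of its label, 13 of 20 striated muscle genes tested were called with the Grg3Grg4 label. So were 3 of the 11 smooth muscle genes, against 0.718% of all genes called higher. These calls are given as a description.

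With the Grg3Grg4 label over the Grg3 label, the log2 fold changes ran from 1.20 for Myog to 5.70 for Myh3, with a median of 4.42, and none of the 19 was called (edgeR adjusted p 0.132 to 0.701, 0.13% of all genes called higher). At an unadjusted p under 0.05, 15 of 19 passed, against 17.3% of all genes. DESeq2's Wald test gave an adjusted p to 6 of them and called 2 higher, against 3.48% of all genes. Since the same 19 genes passed the filter, these counts are a description too. Without Grg3Grg4 replicate 2 the median was 0.15 and 12 of 19 were positive. Neb was the only one of the 21 for which every library labelled Grg3Grg4 lay above every library labelled Grg3 (11.8% of all genes tested).

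**Figure D3:**
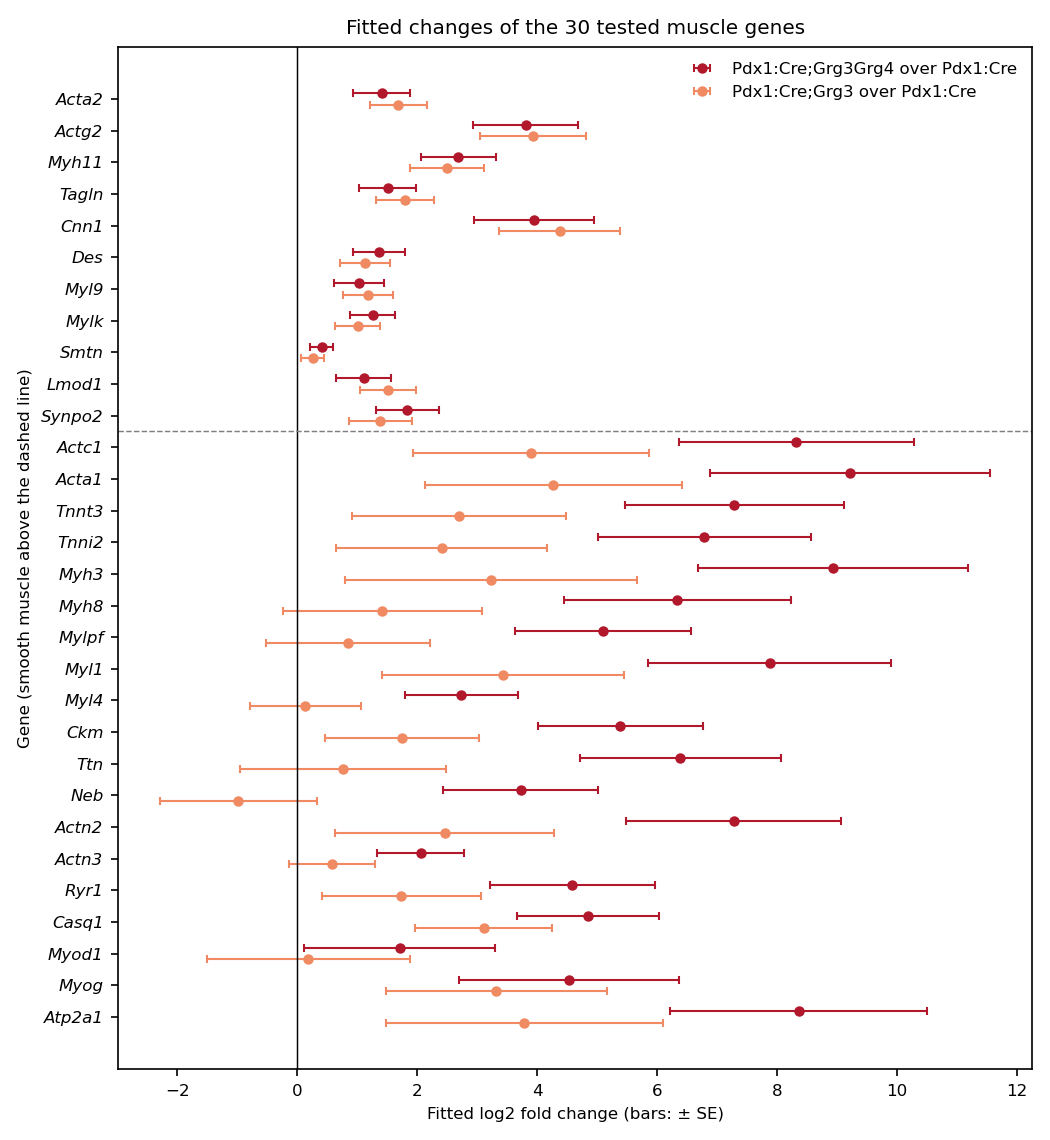
Fitted log2 fold changes over the Pdx1:Cre controls of the 30 genes tested, with bars of 1 SE, for the Grg3Grg4 and Grg3 labels. The labels lie side by side for the smooth muscle genes, with medians of 1.41 and 1.52, and apart for the striated muscle genes, with medians of 6.34 and 2.41, and the fitted values of Myog and Atp2a1 depend on a prior count since their controls hold under 10 reads.

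Per length, Acta1 was the leading striated muscle gene of Grg3Grg4 replicate 2, at 581 RPKM. Mylpf was next at 170.5 RPKM, followed by Tnnt3 at 113 RPKM and Actc1 at 106 RPKM, while Myh8 and Myh3 were at 61.1 and 45.8 RPKM. In the same library Acta2, the leading smooth muscle gene, was at 142 RPKM. Acta1 made 27.7% of the striated muscle CPM there. It made 21.4% in Grg3Grg4 replicate 1, 20.2% in Grg3 replicate 1 and 27.3% in Grg3 replicate 3, against 3.36% to 5.42% in the controls. In Grg3Grg4 replicate 3 and Grg3 replicate 2 its share was 7.43% and 3.07%.

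The classes thus placed the libraries in different orders. Grg3 replicate 2 was next to the top in the smooth muscle sum, and 4 libraries were above it in the striated muscle sum. As a description over the 9 libraries, the log2 CPM of pairs of smooth muscle genes had a median Pearson correlation of 0.93 (0.76 to 0.988) and pairs of striated muscle genes 0.925 (0.641 to 0.995). Pairs across the classes had a median of 0.629 (0.128 to 0.964). All of these points share their libraries, and 1 library carries much of the striated muscle values. Casq1 correlated at 0.863 with the rest of its own class and at 0.909 with the smooth muscle genes.

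**Figure D4:**
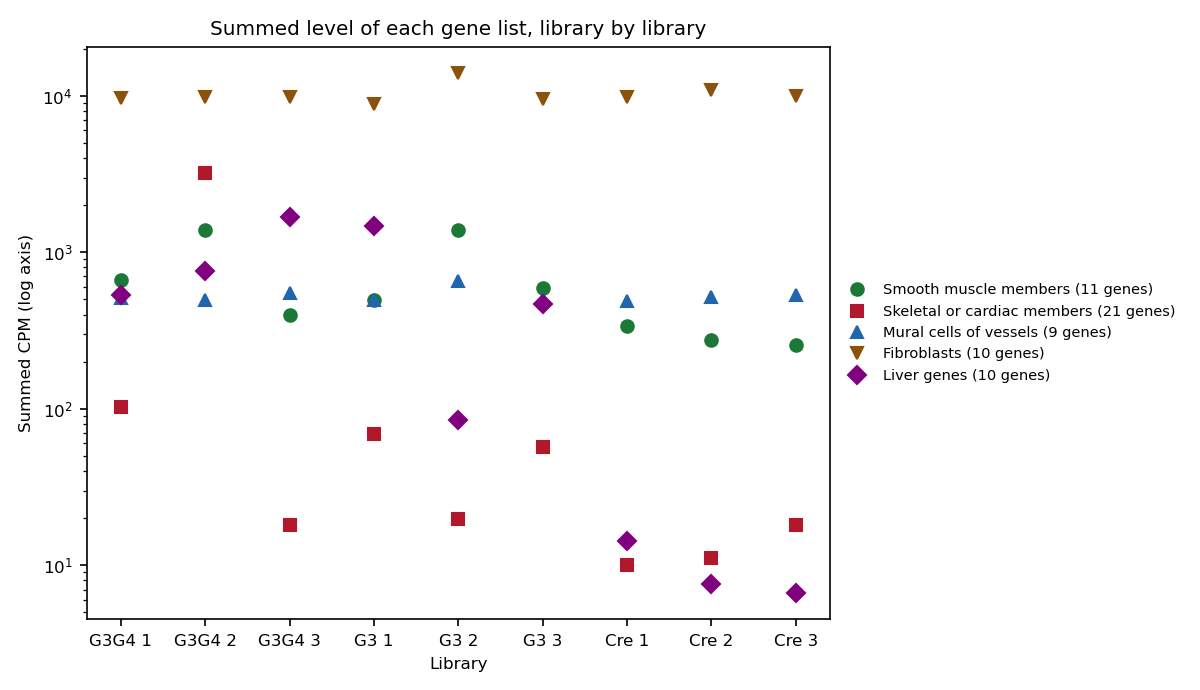
Summed CPM on a log axis of the smooth muscle and striated muscle genes and of the marker lists beside them, in each library (G3G4 for the Grg3Grg4 label, G3 for the Grg3 label, Cre for the controls). The smooth muscle sum peaks in replicate 2 of both labels, at 1396 and 1381 CPM, and the striated muscle sum in Grg3Grg4 replicate 2 alone, at 3221 CPM.

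Other genes of the same tissues were read from lists. Of 21 further smooth muscle contractile genes tested, 0 were called in any of the 3 comparisons, where 2.14%, 1.4% and 0.188% of all genes were called in either direction, and the median log2 fold changes were 0.42 with the Grg3Grg4 label and 0.31 with the Grg3 label. At an unadjusted p under 0.05, 13 passed with the Grg3Grg4 label over control (20.2% of all genes), 6 with the Grg3 label over control (19.1%) and 3 between the labels (17.3%). Pgm5, a protein of smooth muscle attachment plaques, stood at 18.4, 23.3 and 13.7 CPM with the Grg3Grg4 label, at 20.8, 35.5 and 20.5 CPM with the Grg3 label, and at 13.1, 12.5 and 11.8 CPM in controls, with an edgeR adjusted p of 0.216 and 0.0643 for the 2 labels. Of 10 regulators 0 were called in any comparison, with 2 at an unadjusted p under 0.05 in each, against 20.2% of all genes with the Grg3Grg4 label over control, 19.1% with the Grg3 label over control and 17.3% between the labels. Myocd, which encodes myocardin, stood at 1.80, 2.90 and 0.571 CPM with the Grg3Grg4 label, at 1.15, 2.38 and 1.40 CPM with the Grg3 label, and at 0.689, 0.461 and 0.484 CPM in controls. Replicate 2 of each label was the highest of its group.

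The markers of vessel mural cells, summed, spanned a narrower range than the smooth muscle genes. The 9 genes summed to 494 to 546 CPM with the Grg3Grg4 label and 494 to 650.2 CPM with the Grg3 label, against 490.0 to 536 CPM in controls, and 0 of 9 were called in any comparison. At an unadjusted p under 0.05, 0 passed with the Grg3Grg4 label over control (20.2% of all genes), 2 with the Grg3 label over control (19.1%) and 3 between the labels (17.3%). The member with the smallest p, Ndufa4l2, stood at 18.48, 21.2 and 34.1 CPM with the Grg3Grg4 label, at 36.2, 48.2 and 36.0 CPM with the Grg3 label, and at 21.4, 22.3 and 19.5 CPM in controls. All 3 libraries labelled Grg3 lay above the controls, with a log2 fold change of 0.93 (edgeR adjusted p = 0.062). The channel subunit gene Kcnj8 had a log2 fold change of 0.44 with the Grg3 label (edgeR adjusted p = 0.181). The 11 genes of gut wall mesenchyme and enteric cells summed to 184 to 199.8 CPM with the Grg3Grg4 label and 183 to 222 CPM with the Grg3 label, against 178 to 195 CPM in controls. None of the 11 was called in any comparison. At an unadjusted p under 0.05, 4 passed with the Grg3Grg4 label over control (20.2% of all genes), 3 with the Grg3 label over control (19.1%) and 1 between the labels (17.3%). Among them Hand1, a transcription factor of gut mesenchyme and heart, stood at 0.884, 3.01 and 0.163 CPM with the Grg3Grg4 label, at 0.969, 3.28 and 0.993 CPM with the Grg3 label, and at 0.417, 0.126 and 0 CPM in controls, highest in the libraries that led the smooth muscle genes. Fibroblast markers summed to 9619 to 9860 CPM with the Grg3Grg4 label and 8819 to 13955 CPM with the Grg3 label (the highest in replicate 2), against 9863 to 10865 CPM in controls. Of 10 tested, Fbln1, which encodes the matrix protein fibulin, was called higher with the Grg3 label by 0.50 on the log2 scale (edgeR adjusted p = 0.035, 0.704% of all genes called higher), and none was called in the other comparisons. The matrix gene Lum, for lumican, stood at 71.2, 60.8 and 67.6 CPM with the Grg3Grg4 label, all below the controls (edgeR adjusted p = 0.209), at 93.2, 159 and 96.9 CPM with the Grg3 label, and at 83.0, 93.4 and 95.2 CPM in controls. The part of these cell types in the smooth muscle values was not tested.

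Of 21 further skeletal muscle sarcomere and calcium genes tested, 0 were called in any comparison, and 19 passed at an unadjusted p under 0.05 with the Grg3Grg4 label over control (20.2% of all genes), 0 with the Grg3 label over control (19.1%) and 16 between the labels (17.3%). Their median log2 fold changes were 2.53 with the Grg3Grg4 label and 0.60 with the Grg3 label. In each control 18 of the 28 listed genes were under 1 CPM, so these counts and medians are given as a description. The muscle enolase Eno3 stood at 7.63, 63.8 and 7.98 CPM with the Grg3Grg4 label, at 7.24, 6.22 and 7.46 CPM with the Grg3 label, and at 4.57, 4.63 and 4.58 CPM in controls. Of 8 regulators and neuromuscular genes tested 0 were called in any comparison. At an unadjusted p under 0.05, 5 passed with the Grg3Grg4 label over control (20.2% of all genes), 1 with the Grg3 label over control (19.1%) and 2 between the labels (17.3%). In each control 16 of the 18 listed were under 1 CPM, so these counts are a description too. The fusion factor Mymk, for myomaker, stood at 0.343, 2.31 and 0.224 CPM with the Grg3Grg4 label, at 0.439, 0.439 and 0.304 CPM with the Grg3 label, and at 0.0417, 0.0419 and 0.154 CPM in controls.

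Genes of heart muscle were higher in each labelled library than in any control when summed. The 14 genes summed to 13.4, 49.9 and 10.6 CPM with the Grg3Grg4 label, to 11.9, 20.8 and 10.2 CPM with the Grg3 label, and to 5.47, 3.81 and 4.58 CPM in controls. Of 7 tested, 2 were called higher with the Grg3Grg4 label, against 1.24% of all genes, and 1 with the Grg3 label, against 0.704%. The cardiac troponin Tnnt2, which immature skeletal muscle also makes, stood at 2.67, 12.8 and 1.04 CPM with the Grg3Grg4 label (edgeR adjusted p = 0.0721), at 2.74, 10.8 and 1.30 CPM with the Grg3 label (edgeR adjusted p = 0.0911), and at 0.292, 0.398 and 0.198 CPM in controls. Ankrd1, a stress-responsive muscle protein, rose by 3.00 with the Grg3Grg4 label (edgeR adjusted p = 0.0247) and by 3.03 with the Grg3 label (edgeR adjusted p = 0.0311) on the log2 scale. The slow myosin Myh7, of heart and slow skeletal fibres, stood at 1.68, 13.8 and 0.326 CPM with the Grg3Grg4 label (edgeR adjusted p = 0.0482), at 0.384, 3.38 and 0.649 CPM with the Grg3 label, and at 0, 0 and 0.0220 CPM in controls. It passed the filter on low counts only through the labelled libraries, so its call, 1 of the 2 above, is given as a description. Of the 7 heart genes that did not pass the filter, Myl2 and Myl3 reached 2.91 and 1.37 CPM in Grg3Grg4 replicate 2. In the same 7, the cardiac alpha myosin gene Myh6 was at 0.235 CPM or less and Nppa at 0.0721 CPM or less in all 9 libraries. The others of the 7 are not given here. The part of heart muscle in the striated muscle values was not tested.

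RNA typical of liver also rose under both labels and in a different order of libraries. The 10 liver genes summed to 532, 762 and 1687 CPM with the Grg3Grg4 label, to 1464, 84.5 and 463 CPM with the Grg3 label, and to 14.3, 7.60 and 6.65 CPM in controls. In each comparison with control 8 of 10 were called higher. The share of all genes called higher was 1.24% with the Grg3Grg4 label and 0.704% with the Grg3 label. In the controls 5, 7 and 6 of the 10 were under 1 CPM, so these calls are given as a description. Grg3 replicate 2, in the top 2 for the smooth muscle sum, was the lowest labelled library here. Genes of stomach and intestine epithelium summed to 34.8 to 40.9 CPM with the Grg3Grg4 label and 20.9 to 54.2 CPM with the Grg3 label, against 35.4 to 43.7 CPM in controls. Of 6 tested, Clca1 and Lgals4 were called higher with the Grg3 label over control (0.704% of all genes called higher). None was called with the Grg3Grg4 label over control. With the Grg3Grg4 label over the Grg3 label, 1 of 6 was called lower (edgeR adjusted p = 0.015, 0.188% of all genes called in either direction). In each control 11 of the 13 listed genes were under 1 CPM, so the calls of this list are given as a description. The part of neighbouring tissue in the muscle values was not tested.

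By likeness of log2 CPM to the mean of a class over the 9 libraries, among 14961 other genes, the closest to the smooth muscle genes were Asb2 (Pearson r 0.9821), Palld, Myocd, Sh3bgr, Wscd2, Tnnt2, Cpne5, Ntm, Mab21l2 and Dmpk (0.9534). Asb2 stood at 3.32, 9.09 and 1.02 CPM with the Grg3Grg4 label, at 1.83, 12.0 and 2.23 CPM with the Grg3 label, and at 0.564, 0.314 and 0.528 CPM in controls. The closest to the striated muscle genes were Abat (r 0.9769), Pgam2, Mybpc1, Eno3, Nxpe3, Btbd11, Pygm, Tnnt1, Ldb3 and Shd (0.958). Mybpc1, a myosin-binding protein of skeletal muscle, stood at 3.84, 113 and 1.92 CPM with the Grg3Grg4 label, at 3.24, 0.810 and 2.80 CPM with the Grg3 label, and at 0.710, 1.84 and 2.05 CPM in controls.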

How the data were processed

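RNA-seq was done on 9 libraries of whole pancreas. Each deposited file lists the authors' raw count per gene for 1 library, without normalization. In the submitters' processing notes HISAT2, HTSeq, Trim Galore, FastQC, DESeq2 and bedtools stand without roles, beside the builds GRCm38 and mm10. Whether counting used strand was not stated. The 5 rows that name no gene held 28.5% to 33.2% of the reads and were left out.

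Counts were scaled by TMM and tested 2-sided in R 4.3.3 with edgeR 4.0.16, by its quasi-likelihood test, over the 19166 genes kept by filterByExpr (minimum count 10, minimum total 15). The 9 libraries were fitted together, each group with its own mean, and calls were made at a Benjamini-Hochberg adjusted p under 0.05 over all genes tested. The SE is the log2 fold change divided by the square root of F. Where a group had under 10 counts, its ratio to the other group is given in place of a fitted change, with exact 95% limits. Exon lengths, positions and overlaps came from GENCODE M21 (GRCm38). RPKM is CPM per kilobase of merged exons. Correlations used log2(CPM + 0.5). Alternatives used DESeq2 1.42.0 and limma 3.58.1. The test was tested on simulated data. Replicates differed by 18.5 to 213 in chi-square per degree of freedom, so none was a repeat of another. Nothing says that they are separate litters or dissections, so the p-values measure the spread between these libraries. The members and lists were chosen with earlier results of these data known. All members are named. Of each list, up to 4 genes with the smallest p were eligible for naming, and of each class the 10 most correlated genes outside it. Myh6, Nppa, Myl2, Myl3 Xist, Ddx3y and the markers Ins2, Gcg and Krt19 fall outside this rule and were chosen after their values were seen.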

Additional observations from a re-analysis of the deposited data

How the results depend on the processing

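The main counts of genes called, of smooth muscle and of striated muscle genes called higher, were 410, 0 and 0 with the Grg3Grg4 label over control, 268, 0 and 0 with the Grg3 label over control, and 36, 0 and 0 between the labels. With no filter on low counts they were 930, 7 and 16, then 586, 5 and 0, then 228, 0 and 2. With DESeq2's Wald test they were 1553, 4 and 6, then 1463, 5 and 0, then 1019, 0 and 2. With only the 6 libraries compared, 750 genes and 2 smooth muscle genes were called with the Grg3Grg4 label, 4 smooth and 3 striated muscle genes with the Grg3 label, and 10 genes between the labels. Limma voom gave 1033 genes and 1 smooth muscle gene, then 421 genes. The filter of 1 CPM gave 75 genes between the labels. With both replicate 2 libraries left out, an exclusion chosen after seeing the data, 581 genes were called with the Grg3Grg4 label and 567 with the Grg3 label. Each comparison with control then called 4 smooth and 8 striated muscle genes. Size factors of DESeq2 kept every count within 1.5 times. The cause of these differences was not tested.

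Leaving out each library in turn gave 50 to 320 genes, 0 to 3 smooth and 0 to 13 striated muscle genes with the Grg3Grg4 label over control, 32 to 289 genes with the Grg3 label and 6 to 49 between the labels. Same-numbered libraries deviated together weakly (r from -0.0932 to 0.11), and differently numbered ones ran from -0.149 to 0.202. These values show no pairing by number. With deviations taken within groups of 3 libraries, they cannot exclude one. With the replicate block 254, 167 and 11 genes were called, and no muscle gene.

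Among single genes, no smooth muscle gene changed sign over control under the alternatives run. Myod1 did: over control it was -0.43 (voom), -2.52 (both replicate 2 libraries left out) and, with libraries left out in turn, from -2.53 to 3.13 with the Grg3Grg4 label and from -2.14 to 1.62 with the Grg3 label, and it was -0.70 between the labels in voom. Between the labels, leaving out libraries in turn gave both signs, from the lowest to the highest: Acta2 -0.82 to 0.35, Actg2 -1.44 to 0.69, Cnn1 -1.32 to 0.64, Des -0.46 to 0.69, Lmod1 -0.75 to 0.35, Myh11 -0.55 to 1.0, Myl9 -0.67 to 0.42, Mylk -0.28 to 0.72, Smtn -0.06 to 0.37, Synpo2 -0.30 to 0.87, Actn3 -0.33 to 1.93, Atp2a1 -0.15 to 5.22, Casq1 -0.93 to 2.47, Myod1 -2.72 to 3.87, Myog -1.78 to 4.44, Ryr1 -0.85 to 3.42 and Tnni2 -0.04 to 4.96.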
